A study of Mus musculus with 40 samples.

Results

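The binding of 3 corepressor proteins was examined at 10 genes that make glucose in the liver or control its making, namely Pck1, G6pc, Fbp1, Pcx, Slc37a4, Ppargc1a, Ppargc1b, Crtc2, Gcgr and Pdk4, out of 21938 protein-coding genes of the nuclear genome. The genes were picked by name, and a peak was counted for a gene when its centre lay inside the annotated gene or within 50 kb of either end, a stretch called the window of the gene. Chromatin immunoprecipitation followed by sequencing had been run on livers of male C57BL/6 mice that were fed ad lib and carried Bcl6 fl/fl without Cre, so that Bcl6, the gene of a transcriptional repressor, was intact and the animals served as wild type. Each of the 3 peak lists, for SMRT, NCoR and HDAC3, pooled 3 libraries. The remaining 31 of the 40 samples were not analysed here. They covered hepatocyte Bcl6 knockouts, Ppara knockouts, knockouts of both genes, a histone mark, PPARδ in fasted mice, and inputs. The age of the animals and the sequencing depth were not given in the sources used here, and the chromatin came from whole liver, which holds several cell types.

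Gluconeogenesis is the synthesis of glucose from lactate, amino acids and glycerol, by which the liver keeps blood glucose up between meals. Fasting hormones raise transcription of its genes through the factors CREB, FOXO1, HNF4α and the glucocorticoid receptor, which draw in coactivators such as PGC-1α, whereas feeding and insulin hold the genes down. NCoR and SMRT are corepressors that are brought to DNA by other factors and carry the histone deacetylase HDAC3, which removes acetyl groups from histones at promoters and enhancers.

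In fed liver, all 10 genes had NCoR peaks in their windows and 9 of the 10 had a shared site, defined as a place where NCoR, SMRT and HDAC3 peaks had their centres at most 200 bp apart. Over all protein-coding genes, 72.3% had an NCoR peak and 39.2% a shared NCoR peak in the window. The windows held 108 of the 35138 NCoR peaks, 44 of the 10654 SMRT peaks and 51 of the 14462 HDAC3 peaks. These merged into 110 sites, of which 37 were shared sites, 52 had NCoR alone, 14 had NCoR and HDAC3, 5 had NCoR and SMRT, 2 had SMRT alone and none had HDAC3 alone. Among the enzymes, Pck1, G6pc, Fbp1 and Pcx each had a shared site at a promoter of its own, as did the kinase gene Pdk4. Slc37a4 was the member with no shared site.

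The DNA under the shared site closest to a transcription start site (TSS) of the gene is shown for most of the members. These are the places where all 3 cofactors met nearest to the start of transcription. Ppargc1b and Crtc2 also had shared sites but are not shown, and Slc37a4 had none to show. Each stretch is 200 bases of GRCm38 (mm10), 5′ to 3′ on the strand of the gene, and positions are counted from the nearest annotated TSS of the gene, which is 0, with negative numbers upstream. Capitals mark the bases from the first to the last of the SMRT, NCoR and HDAC3 peak centres. In G6pc the centres lay just inside the gene, so the stretch stops at the base before the TSS and capitals mark the bases inside the NCoR interval. The Pck1 stretch (chr2:173152694-173152893, plus strand) runs from -354 to -155, the G6pc stretch (chr11:101367361-101367560, plus strand) and the Fbp1 stretch (chr13:62888283-62888482, minus strand) run from -200 to -1, and the Pcx stretch (chr19:4594145-4594344, plus strand) runs from -201 to -2 of an internal start of the gene. The Ppargc1a stretch (chr5:51552592-51552791, minus strand) lies in intron 1 from +1100 to +1299, the Gcgr stretch (chr11:120529024-120529223, plus strand) runs from -1675 to -1476 and the Pdk4 stretch (chr6:5496417-5496616, minus strand) runs from -307 to -108.
Pck1: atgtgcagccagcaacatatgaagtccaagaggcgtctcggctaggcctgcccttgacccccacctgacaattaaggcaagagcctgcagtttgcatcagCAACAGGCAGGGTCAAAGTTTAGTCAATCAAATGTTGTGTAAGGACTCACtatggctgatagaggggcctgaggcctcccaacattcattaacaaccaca
G6pc: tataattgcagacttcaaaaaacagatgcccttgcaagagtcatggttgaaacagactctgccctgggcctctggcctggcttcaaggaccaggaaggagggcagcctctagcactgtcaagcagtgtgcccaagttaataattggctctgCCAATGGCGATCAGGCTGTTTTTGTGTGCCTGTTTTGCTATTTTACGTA
Fbp1: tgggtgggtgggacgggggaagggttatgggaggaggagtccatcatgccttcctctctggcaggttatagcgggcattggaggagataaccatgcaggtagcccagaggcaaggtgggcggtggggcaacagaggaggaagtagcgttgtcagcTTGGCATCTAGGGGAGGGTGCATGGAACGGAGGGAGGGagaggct
Pcx: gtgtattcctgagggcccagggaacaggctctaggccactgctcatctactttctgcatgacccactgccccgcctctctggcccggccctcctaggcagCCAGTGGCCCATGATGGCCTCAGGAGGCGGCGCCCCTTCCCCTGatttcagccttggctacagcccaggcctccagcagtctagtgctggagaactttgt
Ppargc1a: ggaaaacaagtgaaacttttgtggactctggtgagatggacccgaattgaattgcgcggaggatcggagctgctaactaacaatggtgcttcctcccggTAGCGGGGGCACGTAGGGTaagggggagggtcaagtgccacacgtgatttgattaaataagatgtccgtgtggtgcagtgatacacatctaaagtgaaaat
Gcgr: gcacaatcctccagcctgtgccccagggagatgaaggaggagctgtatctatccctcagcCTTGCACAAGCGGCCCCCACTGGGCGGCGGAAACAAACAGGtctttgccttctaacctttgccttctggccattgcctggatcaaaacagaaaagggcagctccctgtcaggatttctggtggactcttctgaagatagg
Pdk4: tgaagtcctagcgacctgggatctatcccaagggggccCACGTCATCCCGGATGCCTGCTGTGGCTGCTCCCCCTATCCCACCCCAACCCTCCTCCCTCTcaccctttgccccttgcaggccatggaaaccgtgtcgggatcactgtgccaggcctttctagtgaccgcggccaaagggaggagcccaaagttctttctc
The 3 centres fell within stretches of 19 bases at Ppargc1a, 38 at Fbp1, 41 at Gcgr, 44 at Pcx, 50 at Pck1 and 62 at Pdk4. Of the 12 fixed motif strings described further on, the C/EBP string was found in the Gcgr stretch at -1614 to -1607 and the half-site of the cAMP response element (CRE) in the Pdk4 stretch at -267 to -263, with no string found in the other 5 stretches. The G6pc and Fbp1 stretches stop at the base before the TSS, with 49 and 159 of their 200 bases inside the NCoR interval. The 200 bp around the NCoR centre of the G6pc site, at +65 bp, did hold the HNF6/CUX2 string.

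**Figure D1:**
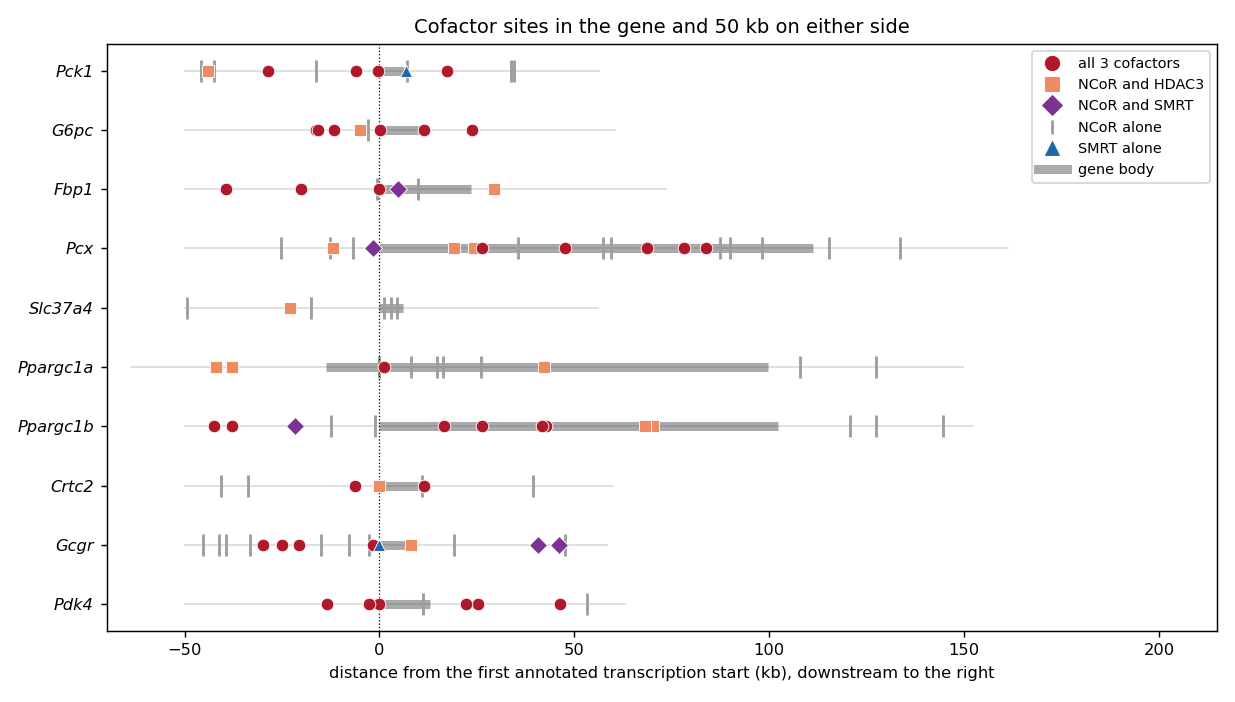
Map of the 110 cofactor sites of the 10 genes. The horizontal axis is distance in kb from the first start of each gene among its basic GENCODE transcripts, downstream to the right. The annotated gene Ppargc1a begins farther upstream than that start. Grey bars are gene bodies, thin lines the windows, and symbols the site classes. Shared sites lie at or near the first start of Pck1, G6pc, Fbp1, Ppargc1a, Gcgr and Pdk4, whereas the promoter site of Pcx lies at an internal start deep in the gene and the 4 intragenic shared sites of Ppargc1b lie in its first intron.

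Among the enzymes, Pck1 encodes cytosolic phosphoenolpyruvate carboxykinase, which turns oxaloacetate into phosphoenolpyruvate, and lies at chr2:173153048-173159273 on the plus strand. Its window held 12 sites, 4 of them shared. The shared sites were centred at -28551, -6121, -254 and +17258 bp from the TSS, so that 1 was at the promoter, 2 were distal and nearest to Pck1, and the farthest upstream was nearest to Ctcfl, the testis relative of CTCF, and lay at a promoter of the noncoding gene Ctcflos. No site lay inside the 6.2 kb gene. Downstream, a SMRT peak alone at +6890 and an NCoR peak alone at +7144 were 254 bp apart, just past the 200 bp limit. Another 5 NCoR-only sites and 1 site of NCoR and HDAC3 completed the window.

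G6pc encodes the catalytic subunit of glucose-6-phosphatase, the last step before glucose leaves the hepatocyte, and lies at chr11:101367561-101377903 on the plus strand. All 8 of its sites had G6pc as the nearest protein-coding TSS, and 6 were shared. They were centred at -16291, -15635, -11547, +65, +11562 and +23808 bp, which put 3 upstream, 1 in the 5′ UTR of exon 1 and 2 past the end of the gene. The outermost upstream pair was 656 bp apart and lay at promoters of the noncoding gene Gm11618. Between these sites and the gene, NCoR with HDAC3 was found at -5108 and NCoR alone at -2893. G6pc had 5.44 shared sites per 100 kb of window, the highest density of the 10 genes, against 0.330 shared NCoR peaks per 100 kb over the genome. The genome value includes stretches far from any gene, so it is not the density in windows of other genes.

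Fbp1 encodes fructose-1,6-bisphosphatase, which reverses the committed step of glycolysis, and lies at chr13:62864753-62888282 on the minus strand. Of its 7 sites, 3 were shared, at -45, -20014 and -39302 bp, all upstream of the start. A second promoter site at -729 had NCoR alone. Inside the gene, intron 1 held NCoR with SMRT at +4654 and NCoR alone at +9992. The remaining site, of NCoR and HDAC3, was at the promoter of the neighbour and paralogue Fbp2.

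Pcx encodes pyruvate carboxylase, the mitochondrial enzyme that feeds pyruvate carbon into the pathway, and lies at chr19:4510472-4621752 on the plus strand. It is a long gene of 111.3 kb with 3 annotated starts, and its window held the most sites of the 10, 20 in all with 20 NCoR, 6 SMRT and 8 HDAC3 peaks. Of these 20 sites, 13 lay in the gene. The 5 shared sites were all in intron 2 and were spread along it. The most upstream was at +26268 bp from its nearest annotated start, and the other 4 were at -36388, -15268, -5726 and -101 bp from the internal start at 4594346. The first start itself had no site within the promoter limits, the nearest being NCoR with SMRT at -1717 bp.

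Slc37a4 encodes the transporter that carries glucose 6-phosphate into the endoplasmic reticulum, where the enzyme made from G6pc acts on it. The gene lies at chr9:44396852-44402968 on the plus strand. Its window held 6 NCoR peaks, 1 HDAC3 peak and 0 SMRT peaks, and so no shared site. NCoR alone was found at 3 places inside the gene, centred 20 bp before an internal start in intron 1, in coding exon 4 and in intron 6. The HDAC3 peak coincided with NCoR at -22993 bp and was nearest to Hyou1. G6pc and Slc37a4, whose products act together, therefore had 6 shared sites and 0 shared sites in windows of 110.3 and 106.1 kb.

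Among the regulators, the coactivator genes Ppargc1a and Ppargc1b encode PGC-1α, which fasting induces and which drives the gluconeogenic genes, and its relative PGC-1β, better known for fat synthesis and mitochondrial genes. Ppargc1a lies at chr5:51454250-51567726 on the minus strand. All 11 sites of its window were nearest to it, but 7 of them had NCoR alone, 3 had NCoR and HDAC3, and only 1 was shared, at +1199 bp in intron 1. The site at its promoter, centred at -5 bp, had NCoR alone. This promoter is that of the first start among the basic transcripts, at 51553922, whereas the annotated gene begins farther upstream, at 51567726. Beyond the window, 7 further NCoR peaks had it as their nearest TSS, 3 of them shared, at -314.4, +162.5 and +264.5 kb. Counted by nearest TSS at any distance, Ppargc1a thus had 4 shared peaks.

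Ppargc1b had 14 sites and 6 of them were shared, all 6 assigned to it. Intron 1 held 4 of these, at +16614, +26351, +41750 and +42583 bp, the last pair 833 bp apart, and the other 2 were upstream at -37766 and -42474 bp. No peak of any list fell at its promoter, which makes it the 1 member of the 10 without a promoter site, and the nearest was NCoR alone at -1167 bp. The PGC-1 pair thus differed in layout. Ppargc1a had 1 shared site at +1199 bp of its start among 10 others without SMRT, and Ppargc1b had 6 shared sites, none closer than 16614 bp.

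Crtc2 encodes the CREB coactivator that glucagon signalling sends to the nucleus, and lies at chr3:90254163-90264125 on the plus strand. Of the 7 sites in its window, 1 had Crtc2 as the nearest protein-coding TSS, the promoter site at -22 bp with NCoR and HDAC3 but no SMRT. The 2 shared sites lay at promoters of its neighbours, at -6242 bp at Slc39a1, a zinc transporter gene, and at +11505 bp at Dennd4b.

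Gcgr encodes the glucagon receptor and lies at chr11:120530699-120538986 on the plus strand. Its window held 17 sites, including 16 NCoR peaks, or 14.8 NCoR peaks per 100 kb against 1.33 over the genome, stretches far from genes included. Of 4 shared sites, 1 was assigned to Gcgr, at -1575 bp. The other 3, at -20541, -24923 and -29987 bp, were nearest to Slc25a10, the gene of the mitochondrial dicarboxylate carrier. The Gcgr promoter, at -102 bp, had SMRT alone, a class that made up 3.35% of the whole SMRT list and 2 of the 44 SMRT peaks here (4.55%).

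Pdk4 encodes the pyruvate dehydrogenase kinase that fasting induces and that keeps pyruvate from being burned. It lies at chr6:5483351-5496309 on the minus strand. Its window held 8 sites, 6 of them shared and assigned to Pdk4, at -13565, -2670, -208, +22090, +25172 and +46243 bp. The other 2 had NCoR alone, 1 of them in the 3′ UTR at +11070 bp. At 5.31 shared sites per 100 kb Pdk4 stood beside G6pc, and these 2 genes were the members in which shared sites outnumbered all other sites (6 of 8 in both).

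Set against the whole lists, shared peaks made up a somewhat larger part of the NCoR peaks in the windows. Of the 108 NCoR peaks, 37 (34.3%, exact 95% interval 25.4 to 44.0) were shared, against 24.9% of all NCoR peaks, and 52 (48.1%, 38.4 to 58.0) had neither partner, against 56.1%. NCoR with HDAC3 made up 13% against 14.8%, and NCoR with SMRT 4.63% against 4.16%. The intervals are Clopper-Pearson intervals that cover counting error only, since peaks of 1 pooled list are not replicates, and no test was made. The interval of the shared share lay just above the value of the whole list, but it held that value when Pck1, G6pc, Fbp1, Ppargc1b or Pdk4 was left out (lower bounds 22.1% to 24.7%). It also held that value with windows of 10 or 100 kb (24% and 22.5%), but not with 25 kb (28.1%). With centres at most 100 bp apart the lower bound was 23.7%, but the share of the list was not recomputed at that distance. The share itself stayed above that of the list, at 31% to 37.1% with a gene left out and 29.6% to 38.8% with the other windows. Fewer peaks also widen the interval. Whether the interval cleared the value of the list thus depended on these choices. In the windows of 50 kb, the intervals of the other NCoR classes held the values of the whole list. NCoR had the longest list and SMRT the shortest, and how far antibody and depth set the class of a site was not tested. For SMRT, 84.1% of the 44 peaks were shared against 81.9% of the list, and for HDAC3 72.5% (58.3 to 84.1) of the 51 peaks against 60.4%.

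The classes also differed in how often the member was the nearest protein-coding gene. Of the 37 shared sites, 31 (83.8%, 68.0 to 93.8) had the member as the nearest protein-coding TSS, against 26 of 52 NCoR-only sites (interval 35.8% to 64.2%). The sites of NCoR and HDAC3 were between, with 10 of 14. G6pc, Ppargc1b and Pdk4 gave 6 each of the 31 shared sites. Such shares are not given here for the windows of other genes. Over all classes 72 of 110 sites (65.5%) were assigned to the member. Among the 70 NCoR peaks assigned, the shared share was 44.3% (32.4 to 56.7). The 6 shared sites assigned elsewhere were those of Slc25a10 (3), Ctcfl, Slc39a1 and Dennd4b (1 each). With the starts of genes of every type counted, 50 of the 110 sites were nearest to the member. All 6 shared sites of Ppargc1b and most of those of G6pc were then nearest to genes that are not protein-coding. The gap between shared and NCoR-only sites was smaller under that rule.

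**Figure D2:**
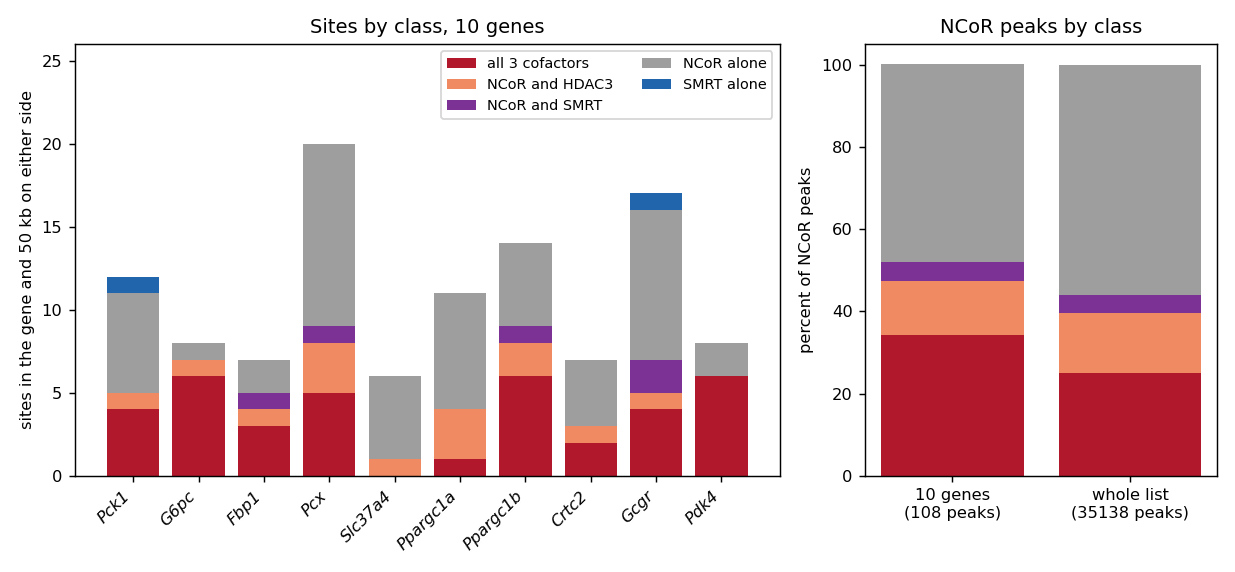
Left, number of sites of each class in the window of each of the 10 genes. Right, percent of NCoR peaks of each class in the 10 windows and in the whole list. Shared sites range from 0 at Slc37a4 to 6 at G6pc, Ppargc1b and Pdk4, and they make up 34.3% of NCoR peaks in the windows against 24.9% of the list.

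Promoters, taken as 1000 bp upstream to 100 bp downstream of any annotated TSS, were more frequent here than over the lists. Every window was built around a gene and so holds the TSS of that gene, whereas the lists also cover stretches far from genes. Windows of other genes were not compared, so how far this rule raised the promoter shares was not tested. Of the 108 NCoR peaks, 26 (24.1%, 16.4 to 33.3) were at promoters, against 12.8% of all NCoR peaks. Of the 37 shared sites, 10 (27%, 13.8 to 44.1) were at promoters, against 8.19% of all shared NCoR peaks. Of these 10, 5 were at a promoter of the member and 5 at a promoter of another gene only. Shared sites within genes numbered 10 (27%, against 57.6% of the list) and intergenic ones 17 (45.9%, against 34.2%).

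At the members' own promoters, 5 of the 10 genes had a shared site, against 2.41% of protein-coding genes, and 9 of the 10 had a peak of some kind, against 17.5%. The 5 were Pck1, G6pc, Fbp1, Pcx and Pdk4. The 4 coactivators and receptor genes (Ppargc1a, Ppargc1b, Crtc2 and Gcgr) had none, with NCoR alone, no peak, NCoR with HDAC3, and SMRT alone in turn, and 5 of the other 6 members had one. With promoters of 2500 bp on either side, 7 members had a shared site, the 2 added being Ppargc1a (+1199 bp) and Gcgr (-1575 bp), so that the split by role depended on the promoter limits. The genes were grouped by role with these positions known, so this is a description of 10 genes and no test was made.

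The shared sites that were assigned to a member lay at a median of 16.3 kb from its TSS, with a range from 0.0450 to 46.2 kb. Of these 31, 5 were within 1 kb, 18 within 20 kb, 18 were upstream of the nearest start and 11 lay in the gene. Distances beyond the windows were not counted, which caps this range. The 3 cofactors sat close together at all 37 shared sites. The SMRT centre was a median of 26 bp from the NCoR centre (2 to 87) and the HDAC3 centre 20 bp (1 to 135), against medians of 23 and 21 bp at all shared NCoR peaks. The widest HDAC3 offset was at +11562 bp of G6pc and the widest SMRT offset at +22090 bp of Pdk4. GC content in the central 200 bp had a median of 51.0% at the shared sites and 52.0% at the NCoR-only sites, against 47.5% and 48.5% over the list. The 10 shared sites at promoters had a median of 54.0% and the 27 others 51.0%.

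Ranked among all protein-coding genes by shared NCoR peaks in the window, the members spread from the bottom to near the top. G6pc, Ppargc1b and Pdk4, with 6 each, were matched or passed by 1.16% of genes, Pcx with 5 by 2.44%, Pck1 and Gcgr with 4 by 5.07%, and Fbp1 with 3 by 10.4%. Crtc2 with 2 was matched by 20.7%, Ppargc1a with 1 by 39.2%, and Slc37a4 with 0 by every gene. The members' windows had a median length of 112 kb (106 to 214) against 117 kb over all genes, but long genes have longer windows and Pcx, Ppargc1a and Ppargc1b were over 200 kb. Per 100 kb of window, shared sites ranged from 0 at Slc37a4 and 0.468 at Ppargc1a to 5.31 at Pdk4 and 5.44 at G6pc, with 1.82 at Crtc2, 2.37 at Pcx, 2.43 at Fbp1, 2.97 at Ppargc1b, 3.69 at Gcgr and 3.77 at Pck1.

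By nearest TSS at any distance, 8 of the 10 members were the nearest gene to at least 1 shared NCoR peak, against 20.9% of protein-coding genes. G6pc, Ppargc1b and Pdk4 again had 6, a number reached by 0.675% of genes. Pcx had 5 (1.26%), Ppargc1a 4 (2.30%), Pck1 and Fbp1 3 (4.33%) and Gcgr 1 (20.9%), while Crtc2 and Slc37a4 had 0. Gcgr and Crtc2 had fewer on this count than in the window, since 3 of the 4 shared sites of Gcgr and both of Crtc2 lay closer to neighbours, and Ppargc1a had more because of its 3 distant sites.

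**Figure D3:**
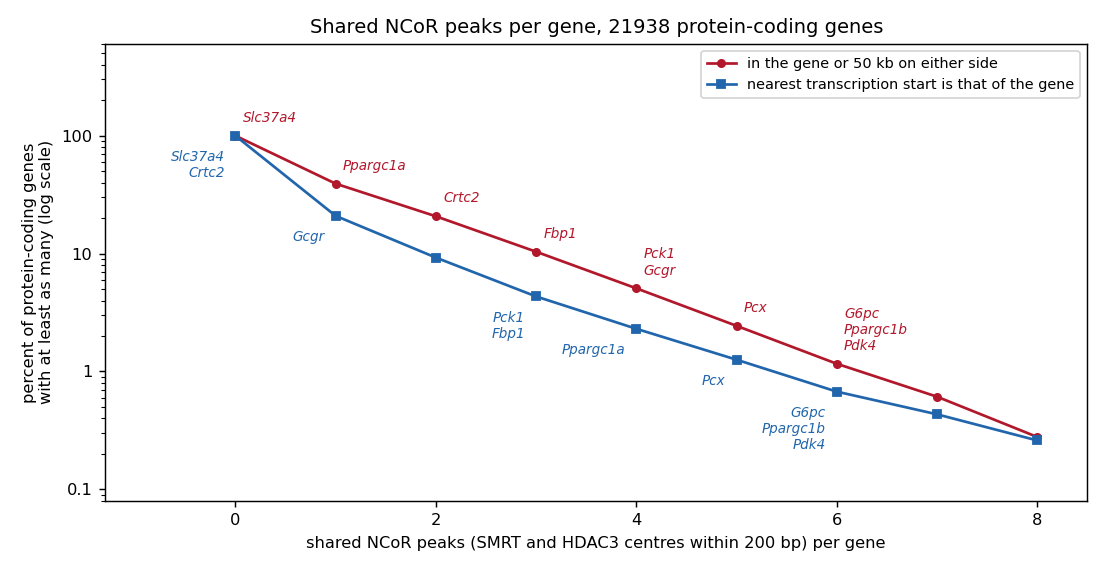
Percent of the 21938 protein-coding genes (log axis) that have at least a given number of shared NCoR peaks, in the window (red) or by nearest TSS (blue), with the members written at their own number. G6pc, Ppargc1b and Pdk4 sit at 6 on both curves, and Slc37a4 sits at 0 on both.

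Paralogues give a comparison within families. The 12 paralogues were Pck2, the mitochondrial form of the Pck1 enzyme, G6pc2 and G6pc3, Fbp2, the PGC-1 relative Pprc1, Crtc1 and Crtc3, Pdk1, Pdk2 and Pdk3, and the incretin receptor genes Glp1r and Gipr, relatives of Gcgr. None of the 12 was the nearest gene to a shared NCoR peak and none had a shared site at its own promoter, against 8 and 5 of the 10 members and 20.9% and 2.41% of protein-coding genes. At a share of 2.41%, a count of 0 of 12 at own promoters does not set the paralogues apart from other genes. Only 5 of the 12 were the nearest gene to any NCoR peak, against all 10 members, so most had no assigned peak that could be shared. Pck2, G6pc3 and Pprc1 had NCoR peaks in the window, but starts of other genes were closer to all of them. In the window, 5 of the 12 had a shared NCoR peak, a share near the 39.2% of all genes, with 3 each at Pck2, G6pc3 and Pprc1, 2 at Fbp2 and 1 at Pdk2. Both shared sites in the Fbp2 window were also in the window of Fbp1, which was the nearer gene. NCoR peaks were in the windows of 10 of the 12, not far from the 72.3% of all genes, and Pdk3 and Glp1r had no peak of any list. Crtc1 had 6 NCoR peaks and Crtc3 had 8, none shared, and Fbp2 was the 1 paralogue with any peak at its own promoter, of NCoR and HDAC3. The levels of these genes in the liver were not measured here, so the part of expression in the difference was not tested.

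**Figure D4:**
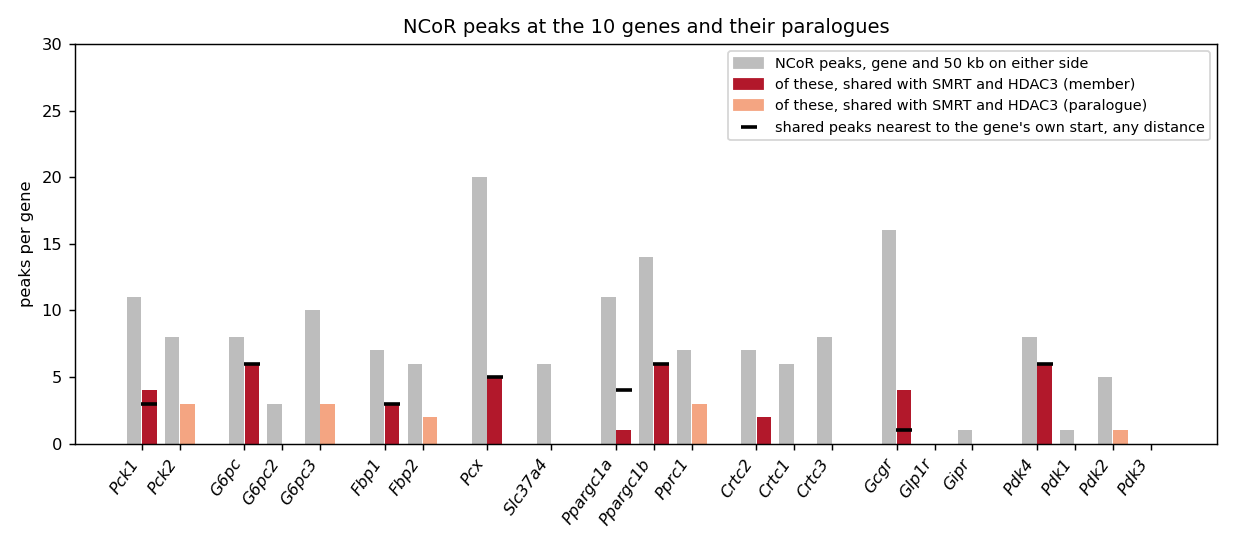
NCoR peaks in the window (grey), those of them shared with SMRT and HDAC3 (red for members, light red for paralogues) and shared peaks nearest to the gene at any distance (black dashes), by gene family. No paralogue carries a black dash, while 8 of the 10 members do. Only 5 of the 12 paralogues were the nearest gene to any NCoR peak.

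Other genes of the pathway and its control were counted from a list of 53, which held the reversible glycolytic steps, transaminases, carriers, and the signalling and transcription factors. An NCoR peak was in the window of 52 of the 53 and a shared one in the windows of 42, against 72.3% and 39.2% of protein-coding genes, and 34 were the nearest gene to a shared peak, against 20.9%. The highest numbers in the window were 7 at Sik1, the salt-inducible kinase that holds CRTC2 out of the nucleus, 6 at Mpc1, a subunit of the mitochondrial pyruvate carrier, and 5 at Aqp9, the glycerol channel, at Cebpa and Cebpb, 2 liver transcription factors, and at Pde4b, a phosphodiesterase that breaks down cAMP and whose window was 619.7 kb long. Creb1, the gene of CREB itself, was the 1 gene of the list with no peak of any list in its window. A shared site at an own promoter was found for 9 of the 53, against 2.41% of protein-coding genes. Among the 9 were Ldha, Gpt, Slc2a2, Sik1 and Nr0b2, picked out after the values were seen. For comparison, all 5 hepatocyte marker genes (Alb, Apoa1, Ttr, Tat and Cps1) had a shared peak in the window, with 1 to 5 each, and none of them had one at its own promoter. Of 18 markers of Kupffer, endothelial, stellate, bile duct and lymphoid cells and of other tissues, 4 had a shared peak in the window and 14 had an NCoR peak. Over all genes the shares were 39.2% and 72.3%, so that the NCoR count was near the share of all genes. The 4 were Ins2 and all 3 endothelial markers (Stab2, Lyve1 and Pecam1), with 1 to 3 shared peaks each at the endothelial ones. A shared peak in the window thus did not set the hepatocyte markers apart from the endothelial ones. The bile duct marker Sox9 had no shared peak in its window but was the nearest gene to 12 farther away. Which cells of the liver gave the peaks at the 10 genes was not tested.

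Sequence strings for factors known at these genes were searched on both strands in the 200 bp around each of the 108 NCoR centres. The strings were TGTTTAC for FOX factors, TGACGTCA for the CRE and TGACG for its half-site, which every CRE contains, TTACGCAA, TTATGCAA, TTGCGCAA and TTGTGCAA for C/EBP, TATTGATC, TATTGATT, TATCGATC and TATCGATT for HNF6/CUX2, TCAAGGTCA and TGAAGGTCA for ERR, CAAAGGCCA, CAAAGGTCA, CAAAGTCCA and CAAAGTTCA for the HNF4 half-site, and TTCCNAGAA, TTCCNGGAA, TTCTNAGAA and TTCTNGGAA for BCL6/STAT. Longer elements, named DR1 (which can overlap the HNF4 half-site), the glucocorticoid response element (GRE), the ROR/REV-ERB element and the CTCF element, were searched as fixed consensus strings. A match describes letters and not binding, and no match says only that these letters are not in the window.

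The shares of the members' windows were mostly near those of the whole NCoR list. The CRE half-site was in 15 of 108 (13.9%) against 9.45%, the HNF4 half-site in 8 (7.41%) against 7.85%, FOX in 7 (6.48%) against 7.74%, HNF6/CUX2 in 5 (4.63%) against 5.67%, and C/EBP in 4 (3.70%) against 5.52%. BCL6/STAT and DR1 were in 2 each (1.85%), against 3.85% and 1.54%, and ERR and GRE in 1 each (0.926%), against 2.18% and 0.848%. The whole CRE was in 2 (1.85%) against 0.552%, and the ROR/REV-ERB and CTCF elements were in none, against 0.942% and 0.512%. No test was made on counts this small. Both whole CREs lay at promoters. In stretches upstream of the 21938 protein-coding genes, the CRE was in 1.86% and its half-site in 17.2%, at or above the shares of the members' windows. FOX (2.05%) and the HNF4 half-site (1.12%) were rarer there. None of the 37 shared sites of the 10 genes held a BCL6/STAT string, against 4.44% of all shared NCoR peaks.

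Among single matches, picked out after they were seen, were the CRE at the Ppargc1a promoter, the GRE in the G6pc site at -5108 bp, the HNF6/CUX2 string at the G6pc promoter site, the ERR string at -1167 bp of Ppargc1b and the FOX string at the Crtc2 promoter. The other whole CRE was at the promoter of Rce1 in the Pcx window. Both DR1 matches, to the element bound by HNF4α and by PPAR with RXR, were in shared sites, at -11547 bp of G6pc and at -28551 bp of Pck1. These sites and the Ppargc1a promoter are shown, chosen after the matches were seen, as 200 bases of GRCm38 on the strand of the member with the matches in capitals. The Pck1 site is chr2:173124397-173124596 (plus strand), the G6pc site chr11:101355914-101356113 (plus strand) and the Ppargc1a stretch chr5:51553923-51554122 (minus strand, -200 to -1).
Pck1 distal: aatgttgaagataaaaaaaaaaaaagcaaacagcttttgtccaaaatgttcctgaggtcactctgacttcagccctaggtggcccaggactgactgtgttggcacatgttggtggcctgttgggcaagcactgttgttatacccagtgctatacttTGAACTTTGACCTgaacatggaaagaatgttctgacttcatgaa
G6pc distal: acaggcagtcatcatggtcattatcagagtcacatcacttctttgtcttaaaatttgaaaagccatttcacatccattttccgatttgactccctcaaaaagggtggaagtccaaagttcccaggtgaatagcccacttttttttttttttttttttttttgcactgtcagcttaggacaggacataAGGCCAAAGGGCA
Ppargc1a promoter: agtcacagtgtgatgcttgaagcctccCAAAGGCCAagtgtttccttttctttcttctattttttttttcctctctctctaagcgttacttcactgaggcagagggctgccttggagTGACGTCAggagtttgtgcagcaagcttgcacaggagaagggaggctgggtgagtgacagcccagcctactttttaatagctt
In the Pck1 site the DR1 match runs from -28495 to -28483 and holds an HNF4 half-site, and in the G6pc site it runs from -11460 to -11448 at the edge of the window. In the Ppargc1a stretch the CRE runs from -83 to -76 with a half-site on each strand, and the HNF4 half-site from -173 to -165 lies outside the NCoR interval, which covers the last 119 bases of the stretch.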

How the data were processed

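SMRT, NCoR and HDAC3 ChIP-seq peak lists of ad lib fed Bcl6 fl/fl livers were used, 3 libraries each. Tissue was cross-linked with disuccinimidyl glutarate and formaldehyde, which also holds proteins that reach DNA through others. The authors aligned single-end reads to mm10 with Bowtie, kept unique reads, made tag directories with HOMER limited to 1 tag per position, called peaks on pooled replicates against input and kept those past fold and false discovery limits in DESeq2. The deposited lists give positions of 212, 228 and 212 bp intervals and no count, score or signal per library, so no comparison uses values per replicate, depth or peak height, and no p-value is given.

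Peaks were joined, assigned and annotated with scripts in Python 3.11.15 (numpy 2.4.6, scipy 1.17.1), tested on simulated peaks, using GENCODE vM21 basic transcripts on GRCm38, the assembly of mm10. Centres at most 200 bp apart overlapped, and sites were joined by single linkage at that distance. Each peak was assigned to the nearest protein-coding TSS. A site was placed by its NCoR centre, or by SMRT where NCoR was absent. Sequences came from the RefSeq copy of GRCm38. The 10 genes, the paralogue, pathway and marker lists and the strings were chosen with earlier results of these data known. Named were all members, all paralogues, the 5 pathway genes with most shared peaks (ties by symbol), any without a peak, and neighbours that were nearest to a shared site. Outside this rule, Pde4b was named because it tied with the last of the 5. The pathway genes said to be picked out after their values were seen were also named outside it. Other overlap distances, window sizes, promoter limits, assignment rules and motif windows were tried.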

Additional observations from a re-analysis of the deposited data

How the results depend on the processing

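Of 97 recomputed values, 82 stayed within 1.5 times the reported count or within the reported interval and 15 did not. With centres at most 100 or 400 bp apart, the sites without NCoR numbered 5 and 1 in place of 2. With the gene plus 10 kb, there were 21 shared sites, 26 with NCoR alone, 9 with NCoR and HDAC3, 2 with NCoR and SMRT, 17 NCoR windows with a motif other than CTCF and 1 paralogue with a shared peak. With 25 kb there were 34 sites with NCoR alone and 3 with NCoR and SMRT, and with 100 kb 25 with NCoR and HDAC3 and 8 paralogues. A smaller or larger window counts fewer or more sites by construction. Promoters of 2500 bp on either side took 35.5% of the sites in place of 24.5%, windows of 100 bp held a motif in 22 cases in place of 39, and the shared share of assigned NCoR peaks was 44.3%. In 100 bp windows the DR1, ERR and GRE counts were 0, the CRE count 1, FOX 3, the HNF4 half-site 4 and the CRE half-site 8, and in 300 bp windows the CTCF count was 1. Leaving out each gene in turn gave a shared share of 31% to 37.1% and a promoter share of the sites of 19.4% to 28.1%. No paired analysis was possible because the deposited lists merge their 3 libraries and carry nothing measured in a single one. For the same reason leaving out replicates, and a stricter peak score, were not run. How many reads lay behind a site, and so whether a missing SMRT or HDAC3 peak was absent or weak, could not be examined.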

Other observations

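Slc25a10, the gene of the mitochondrial dicarboxylate carrier, was the nearest gene to 3 of the 4 shared sites in the Gcgr window, while Gcgr itself was nearest to 1. Among the transcription and signalling genes of the pathway list, Foxo1 and Sik1 were each nearest to 12 shared NCoR peaks and Gadd45g to 10, and their windows held 2, 7 and 4. Foxo1 encodes the insulin-restrained activator of Pck1 and G6pc. Foxo1, Sik1 and Gadd45g were picked out after their values were seen.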
